A study of Mus musculus with 17 samples.

Results

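The Rab GTPases are small GTP-binding proteins of the Ras superfamily that direct membrane traffic. Every gene of the deposited expression table whose symbol is Rab, a number and at most a letter and a digit was taken as a member, which gave 59 of 48440 genes. That rule uses no measured value. Of the members, 50 reached 1 TPM or more (a level scaled to transcript length and to the library's total) in 8 or more of 17 libraries and were tested, as were 14144 genes in all.

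Each Rab protein cycles between a GTP-bound form that sits on a membrane and recruits effectors, and a GDP-bound form that GDP dissociation inhibitors carry in the cytosol. Guanine nucleotide exchange factors load GTP, GTPase activating proteins speed its hydrolysis, and prenyl groups at the C terminus anchor the protein. Different members mark different compartments, from the endoplasmic reticulum and Golgi to endosomes, lysosomes, secretory granules and the synaptic vesicles of neurons.

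RNA came from the whole frontal cortex of adult male offspring, killed at postnatal day 189, of the strain C57BL/6J. The mothers of 9 mice had received 20 mg/kg of Poly(I:C) by intraperitoneal injection at G12.5 (gestational day), and those of the other 8 had received saline. Poly(I:C), a double-stranded RNA analog sensed by antiviral receptors, serves in pregnant mice as a model of maternal immune activation. The labels count 11 dams and do not say which offspring shared one. If those dams bore all 17 animals, some of the animals are littermates. The fit treats every animal as independent, so p-values measure the spread between these animals. With littermates among them, standard errors, intervals and p-values may be too small. In bulk tissue, fewer cells of a type and less RNA per cell cannot be told apart.

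Rab transcripts made up 0.424% of all TPM, and the tested members ran over a wide range of levels. Upstream sequence is shown for a few members so that the levels and the group values can be read beside it, namely the most abundant (Rab3a), the one with the smallest p between groups (Rab8a), one with a dense run of CpG (Rab10) and one that was hardly detected (Rab25). Sequences are RefSeq's on GRCm38.p6, 150 bases 5′ to 3′ ending just before the annotated start, with CpG dinucleotides in capitals.
Rab3a, chr8:70754529-70754678, plus strand: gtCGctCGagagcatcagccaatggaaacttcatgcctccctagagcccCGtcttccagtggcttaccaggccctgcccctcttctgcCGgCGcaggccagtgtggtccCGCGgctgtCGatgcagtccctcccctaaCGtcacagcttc
Rab8a, chr8:72161050-72161199, plus strand: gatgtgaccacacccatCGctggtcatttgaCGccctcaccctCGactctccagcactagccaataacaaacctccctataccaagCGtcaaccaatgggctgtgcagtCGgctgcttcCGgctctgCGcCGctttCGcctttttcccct
Rab10, chr12:3309970-3310119, minus strand: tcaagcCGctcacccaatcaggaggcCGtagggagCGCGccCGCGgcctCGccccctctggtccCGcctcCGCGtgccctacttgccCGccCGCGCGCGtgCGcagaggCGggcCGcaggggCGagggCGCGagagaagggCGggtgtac
Rab25, chr3:88548301-88548450, minus strand: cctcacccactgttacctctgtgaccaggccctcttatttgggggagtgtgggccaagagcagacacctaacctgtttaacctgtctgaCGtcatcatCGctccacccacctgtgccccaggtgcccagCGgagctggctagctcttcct

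Rab3a and Rab8a each hold 9 CpG in the stretch shown, Rab10 holds 22 and Rab25 holds 3. RefSeq windows of 300 bases (250 before to 50 after a start) were found for 48 members, with 60 windows in all. Rab2a, Rab4a, Rab7b, Rab18, Rab26, Rab27b, Rab30, Rab36, Rab37, Rab38 and Rab44 had none in the table used. At least 20 CpG stood in 29 of 54 windows of tested members (53.7%), beside 51.6% of windows of all tested genes and 26.5% of all windows. Among members under the expression filter the count was 1 of 6 windows. The share among tested members was near that of all tested genes.

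Short motifs were counted on both strands of the same windows. The GC box (GGGCGG) was in 72.2% of windows of tested members, beside 61.3% for all tested genes and 35.7% of all windows. The cyclic AMP response element half-site (TGACG) was in 42.6%, beside 30.1% for all tested genes and 20.8% of all windows, and the TATA box (TATAAA) was in 7.41%, beside 7.13% and 13.6%. The CLEAR core (TCACGTGA), the palindrome bound by TFEB-family regulators of lysosomal genes, contains the E-box core CACGTG. It was in 3 of 54 windows of tested members (5.56%), beside 1.78% for all tested genes and 0.974% of all windows. The 3 matches belonged to endosomal and autophagy members and are shown with the motif in capitals and 11 bases on each side.
Rab5a, chr17:53479127-53479156, plus strand: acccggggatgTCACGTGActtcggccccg
Rab24, chr13:55321961-55321990, minus strand: cggcgcccgcgTCACGTGAccgggcgtccc
Rab21, chr10:115315604-115315633, minus strand: gcccaccgcggTCACGTGAcgaggggtgtg

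The matches of Rab5a and Rab21 lie before the RefSeq start and that of Rab24 just after it. A match is a string in a window, and binding was not measured. Among the group values below, Rab24 differed by -0.08, Rab5a by -0.02 and Rab21 by 0.01 (log2(TPM + 1), Poly(I:C) minus saline), so the 3 genes with the motif did not share a direction.

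Members that serve regulated exocytosis supplied 22.7% of all Rab TPM. Rab3a, the main Rab of synaptic vesicles, was the most abundant member at 728 ± 35.8 TPM after Poly(I:C) (SD, n = 9) and 734 ± 30.2 after saline (SD, n = 8). Rab3a (chr8:70754679-70758677, GRCm38) ran from 664 through a median of 735 to 768 TPM across the Poly(I:C) libraries and from 698 through 731 to 788 across the saline libraries. Those ranges overlapped over most of their length.

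Its paralogs on secretory vesicles stood lower, with means over all libraries of 111 TPM for Rab3b, 68.7 for Rab3c and 7.80 for Rab3d. Rab26, a Rab of synaptic vesicles linked to their autophagy, averaged 24.4 TPM. The secretory granule members Rab27b and Rab27a averaged 14.4 and 2.07 TPM, and Rab37, also of secretory granules, averaged 1.40 TPM.

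The largest share, 28.4% of Rab TPM, came from members of the endoplasmic reticulum, Golgi and early secretory traffic. The Golgi members Rab6b, which is enriched in neurons, and Rab6a, which is expressed widely, stood at nearly equal levels. Rab6b measured 370.1 ± 16.1 TPM after Poly(I:C) (SD, n = 9) and 370.4 ± 15.3 after saline (SD, n = 8). For Rab6a the values were 350.4 ± 18.6 (SD, n = 9) and 347 ± 16.7 TPM (SD, n = 8). Neither gene separated the groups, since the libraries of Rab6b ran from 348 through 365 to 396 TPM against 339.5 through 372 to 389.6, and those of Rab6a from 318 through 358 to 373 against 315 through 347 to 365.

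Rab2a, which acts between the endoplasmic reticulum and the Golgi, averaged 138 TPM and its paralog Rab2b 24.9 TPM. Rab1b and Rab1a, required for export from the endoplasmic reticulum, averaged 114 and 82.5 TPM. Rab18, found on the endoplasmic reticulum and lipid droplets, averaged 53.1 TPM. The other tested Golgi-linked members, Rab33a, Rab36, Rab33b, Rab30, Rab34 and Rab43, lay between 7.67 and 22.9 TPM.

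Recycling endosome members held 21.5% of Rab TPM. Rab11b, which returns receptors to the cell surface and is abundant in brain, measured 271 ± 16.3 TPM after Poly(I:C) (SD, n = 9) and 266 ± 6.55 after saline (SD, n = 8). Its Poly(I:C) libraries spread more widely, from 241 through 268 to 293 TPM, than its saline libraries, from 256 through 267 to 274. Rab14, which acts between the Golgi and endosomes, measured 161 ± 9.77 TPM (SD, n = 9) and 165 ± 14.5 TPM (SD, n = 8), with libraries from 148 through 157 to 175 and from 143 through 163 to 186.

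Rab11a averaged 159 TPM and Rab15, a Rab of neuronal recycling endosomes, averaged 138. The fast-recycling members Rab4b and Rab4a averaged 83.3 and 35.1 TPM, and Rab35, which acts in endocytic recycling and neurite outgrowth, averaged 62.9.

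Late endosome, lysosome and autophagy members held 15.2% of Rab TPM, most of it from 1 gene. Rab7, which drives fusion of late endosomes with lysosomes, measured 512 ± 35.8 TPM after Poly(I:C) (SD, n = 9) and 516 ± 31.4 after saline (SD, n = 8). Its libraries ran from 462 through 509 to 572 TPM and from 476 through 512 to 571, an almost complete overlap. Rab12, which acts in degradation of recycling receptors, averaged 60.6 TPM, Rab24, an autophagy-linked Rab, 30.5, and Rab9, which returns receptors from late endosomes to the Golgi, 25.6. Rab9b averaged 7.42 TPM and Rab29, which recruits the kinase LRRK2, 2.90.

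Early endosome members held 7.10% of Rab TPM. The 3 paralogs that govern early endosome fusion averaged 101 TPM for Rab5c, 88.8 for Rab5b and 43.7 for Rab5a. Rab21, an endosomal Rab that binds integrins, averaged 26.5 TPM, Rab31, which acts between the Golgi and endosomes, 23.1, and Rab22a 17.4. Members of constitutive exocytosis, polarity and cilia held 3.76%, led by Rab10 at 57.1 TPM and Rab8a at 42.5, both of which carry cargo to the plasma membrane. In that group Rab28, linked to cilia, averaged 33.6 TPM, Rab8b 11.6, Rab23, an inhibitor of hedgehog signalling, 11.2, and Rab13, a Rab of cell junctions, 3.13. Of the less characterized members, Rab40c averaged 26.5 TPM, Rab40b 16.6, Rab39b, a gene of X-linked intellectual disability, 14.1, and Rab42 1.34.

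**Figure D1:**
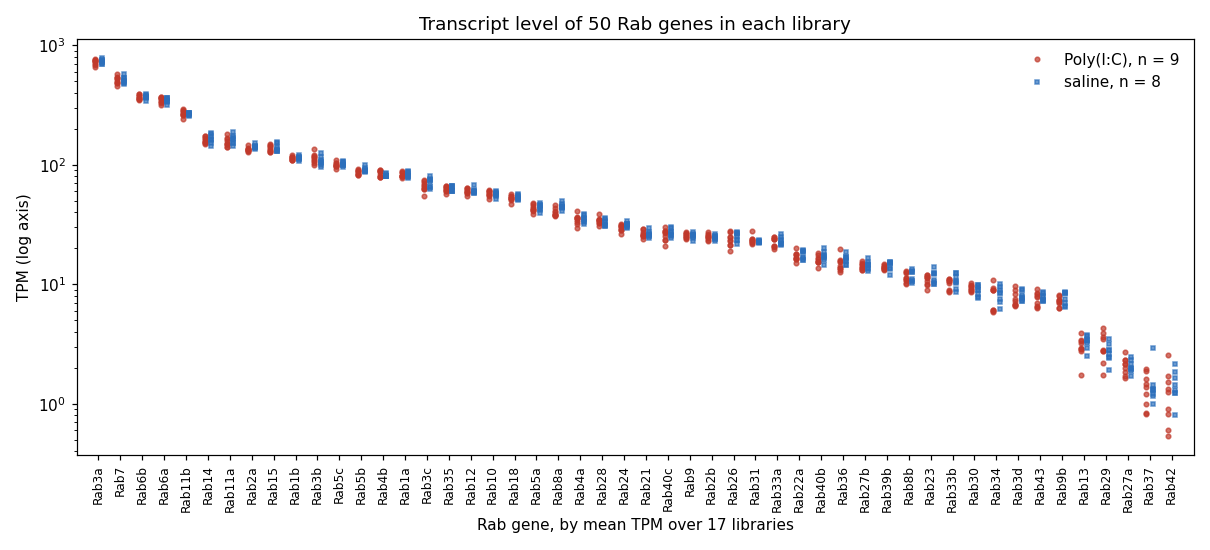
Level of each of the 50 tested Rab genes in TPM (log axis) in every library, ordered by mean level, with Poly(I:C) libraries (n = 9) as red circles and saline libraries (n = 8) as blue squares. Red and blue points of each gene overlap, and the 4 most abundant genes, Rab3a, Rab7, Rab6b and Rab6a, hold 46.3% of the members' summed TPM.

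The 9 members under the filter summed to 2.79 TPM. Rab7b averaged 0.845 TPM and reached 1 TPM in 4 libraries, and Rab32, of lysosome-related organelles, averaged 0.826 and reached 1 TPM in 2. Rab39 averaged 0.402 TPM, Rab38, also of lysosome-related organelles, 0.253, Rab20 0.219 and Rab25, known from epithelia, 0.147. Rab19 averaged 0.0618 TPM, Rab17, another epithelial Rab, 0.0194 with 13 libraries listed at 0, and Rab44 0.0147 with 7 libraries at 0.

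Spread between libraries of the same group differed between members. The coefficient of variation within groups was 3.39% for Rab1b, 3.92% for Rab2a and 4.56% for Rab3a, while the also abundant Rab14, Rab11a and Rab3b had 7.48%, 8.63% and 9.30%. It was 23.6% for Rab29, 36.6% for Rab37 and 40.5% for Rab42, the tested members with the widest relative spread. Their means were only 2.90, 1.40 and 1.34 TPM. Without counts, measurement noise at such levels cannot be told apart from spread between animals. Several members share sequence or territory with another gene, which RSEM resolves by estimation. Rab43 is identical to the model Gm45140 over 4166 bases, so their levels are uncertain to that extent. Rab7 matches Rab7-ps1 at 98.4% over 622 bases, but no level of that copy was listed. Whether reads were divided between Rab7 and that copy is not known. Rab11b matches Rab11b-ps2 at 99.8% over 654 bases, but that copy was listed at only 1.31 TPM. Rab4b is identical to Gm21983 over 1280 of 1372 bases, and Rab5b matches Gm13991 at 99.4% over 648 bases. Those copies were listed at 0.165 and 0.121 TPM. Of the tested members, 12 overlap another gene at 1 TPM or more, 10 of them on the opposite strand and 3 on the same strand (Rab4a with Gm20388, Rab43 with Gm45140, Rab26 with Traf7).

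The comparison of the prenatal groups asked whether Rab transcripts differed in adult frontal cortex after maternal Poly(I:C). No Rab gene passed the test. By limma on log2(TPM + 1), 0 of 50 members had an adjusted p under 0.05, beside 0 of 14144 genes (0%), and the smallest adjusted p of a member was 0.486. The total of all members was 4219 ± 177 TPM after Poly(I:C) (SD, n = 9) and 4262 ± 164 TPM after saline (SD, n = 8). Poly(I:C) libraries ran from 3910 through 4229 to 4453 TPM and saline libraries from 4033 through 4221 to 4547, so the totals overlapped.

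Differences were narrow in size. They ran from -0.16 to 0.11 on the log2 scale, with a median standard error of 0.05, beside 0.06 for all tested genes. For 25 of 50 members the 95% interval lay within 0.15 of zero, a larger share than the 4429 of 14144 genes in all. Interval width follows the standard error, whose median was smaller for members. That share is therefore not read as a result about the members. Differences of at least 0.1 in either direction were found for 6 members (12%), beside 21.4% of all tested genes.

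At an unadjusted p under 0.05, 3 members were lower in the Poly(I:C) group, which is 6% beside 7.85% of all tested genes, and 0 were higher, beside 0.898%. A Mann-Whitney test gave 4 members (8%) at that limit and 1132 genes (8.00%), none past adjustment. Among the 14144 genes 4 had groups that did not overlap, and 0 members were among them. Counting direction alone, 37 of 50 members (74%) were lower, beside 71.0% of all tested genes, and the median difference was -0.028 for members and -0.035 for all genes.

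TPM is a relative scale, so the lean toward lower values was also read after another scaling. Median-of-ratios scaling removes a shift shared by most genes by design, so it cannot decide the source of that lean. After median-of-ratios scaling, 23 of 50 members (46%) were lower, beside 50.9% of all genes, and the median of the members was 0.0081, beside -0.0014 for all genes. On that scaling 2 genes (0.0141%) had an adjusted p under 0.05, and 0 members did. At an unadjusted p under 0.05, 1 member was lower (Rab8a, 2% beside 3.46%) and 5 were higher (Rab4b, Rab28, Rab3b, Rab31 and Rab10, 10% beside 3.87%).

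**Figure D2:**
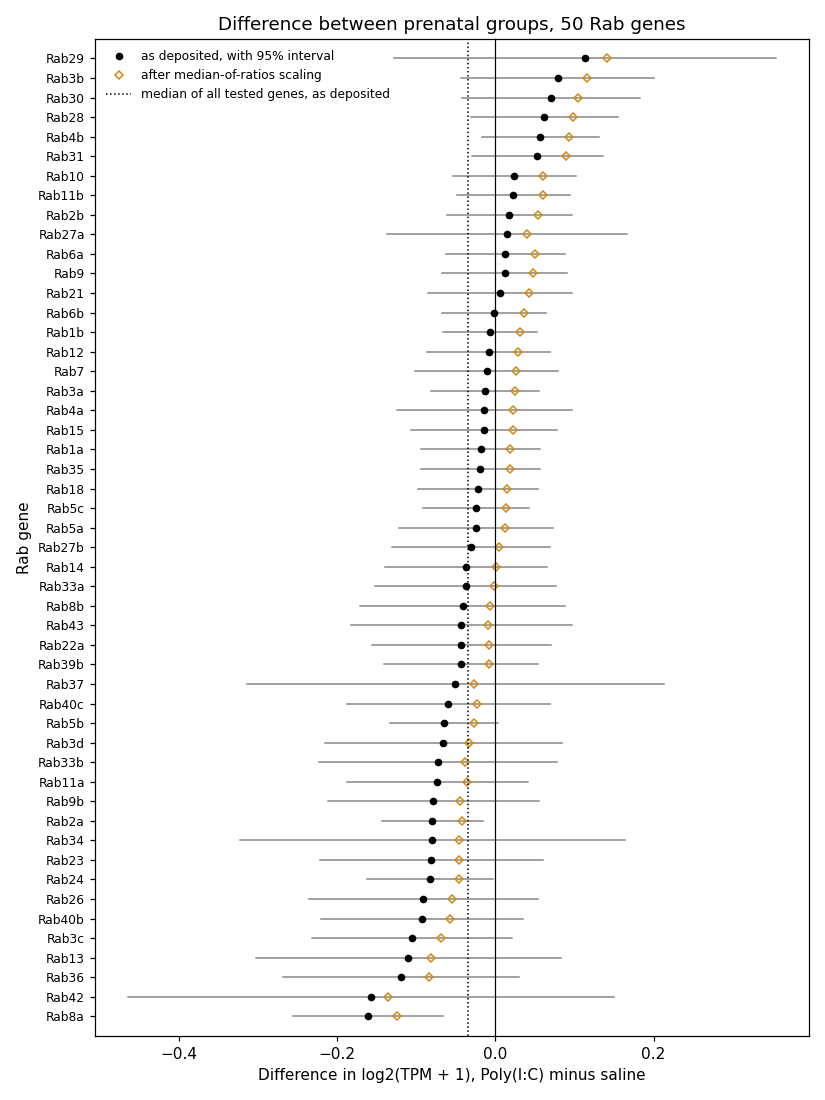
Difference of each tested Rab gene between the groups in log2(TPM + 1), Poly(I:C) minus saline, with its 95% interval from limma as a grey line; filled points are values as deposited, open diamonds are values after median-of-ratios scaling, and the dotted line is the median of all tested genes. Most points lie left of zero as deposited and move right by a similar step after scaling, while Rab8a is lowest as deposited, with an interval that lies below zero, and Rab42 is lowest after scaling (-0.14 against -0.12).

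Rab8a (ENSMUSG00000003037.16, chr8:72161200-72183904, plus strand) had the smallest p of any member. It carries cargo from the Golgi to the plasma membrane and the primary cilium and is a substrate of LRRK2. The Poly(I:C) libraries held 37.6 at the lowest, 39.1 at the median and 45.98 TPM at the highest, and the saline libraries 41.1, 44.5 and 49.7. Of 9 Poly(I:C) libraries, 8 lay below the saline median and 6 below every saline library, and the group means were 40.2 ± 3.00 (SD, n = 9) and 45.1 ± 2.61 TPM (SD, n = 8).

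The log2 difference of Rab8a was -0.16 ± 0.05 (SE), with a 95% interval from -0.26 to -0.07, an unadjusted p of 0.00206 and an adjusted p of 0.486 by limma. After median-of-ratios scaling it was -0.12 (unadjusted p = 0.00382, adjusted p = 0.581, by limma). The alternatives reuse these libraries and are not separate tests, and Rab8a was picked for its small p. Its unadjusted p was under 0.05 in 27 of 27 alternatives, from 0.000299 to 0.0079, and the adjusted p ran from 0.269 to 0.847. Among the named members, Rab2a was under that limit in 25 of 27 alternatives and Rab24 in 13, and none passed the adjusted test in any of them. Its paralog Rab8b ran from 10.1 through 11.2 to 13.0 TPM and from 10.3 through 11.8 to 13.6, with a difference of -0.04 and an adjusted p of 0.856 by limma.

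The other members of constitutive exocytosis and cilia lay in both directions. Rab28 measured 34.3 ± 2.33 TPM after Poly(I:C) (SD, n = 9) and 32.8 ± 1.98 after saline (SD, n = 8), with libraries from 30.7 through 34.7 to 39.1 and from 30.8 through 32.3 to 35.8. Its difference was 0.06 ± 0.04 (SE; adjusted p = 0.688 by limma), and after scaling 0.10 (unadjusted p = 0.019, adjusted p = 0.612). Without Poly(I:C) replicate 2, the highest library of Rab28, it was 0.038. Rab10 differed by 0.02 as deposited and by 0.06 after scaling (limma adjusted p = 0.862 and 0.664). Rab13 and Rab23 had lower means, by -0.11 and -0.08, with adjusted p of 0.727 each.

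In the early secretory pathway, 10 of 13 tested members were lower as deposited (76.9%, beside 71.0% of all tested genes). After scaling 6 of 13 were lower (46.2%, beside 50.9%). Rab2a (chr4:8535644-8607778) ran from 129 through 132 to 148 TPM in the Poly(I:C) group and from 136 through 141 to 152 in the saline group. Of the Poly(I:C) libraries 7 of 9 lay below every saline library, and the groups overlapped through replicate 9 at 148 TPM and replicate 4 at 139 TPM. The difference was -0.08 ± 0.03 (SE), with an unadjusted p of 0.0163 and an adjusted p of 0.51 by limma, and after scaling it was -0.04 (unadjusted p = 0.105). Leaving out replicate 7 of both groups gave -0.06 (limma unadjusted p = 0.0589), so the unadjusted p of Rab2a was above 0.05 under that choice and under median-of-ratios scaling, and under 0.05 after quantile scaling.

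Rab36, a Golgi-linked member, ran from 12.6 through 14.4 to 19.9 TPM and from 14.4 through 16.4 to 18.5. Its highest value was that of Poly(I:C) replicate 3, and its difference was -0.12 ± 0.07 (SE; adjusted p = 0.634 by limma). Rab30, also on the Golgi, was higher at 9.36 ± 0.523 TPM (SD, n = 9) against 8.90 ± 0.893 (SD, n = 8), a difference of 0.07 ± 0.05 (SE; adjusted p = 0.703 by limma) that was 0.045 without saline replicate 2 and 0.046 without saline replicate 6. Libraries of Rab30 ran from 8.62 through 9.36 to 10.2 TPM and from 7.73 through 8.96 to 9.93.

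Regulated exocytosis held members of both directions. Rab3c ran from 54.7 through 66.7 to 74.9 TPM in the Poly(I:C) group and from 62.4 through 73.1 to 80.8 in the saline group, with the lowest value in Poly(I:C) replicate 7 and the highest in saline replicate 7. The difference of Rab3c was -0.11 ± 0.06 (SE; adjusted p = 0.624 by limma), and without both of those libraries it was -0.05. Rab3b, in contrast, ran from 99.0 through 113 to 137 TPM and from 96.1 through 105.4 to 126. Its difference was 0.08 ± 0.06 (SE; adjusted p = 0.695 by limma) and 0.12 after scaling (unadjusted p = 0.0423, adjusted p = 0.664). Without Poly(I:C) replicate 1, its highest library, the Rab3b difference was 0.046. Of the 8 members of this role, 6 (75%) were lower as deposited, beside 71.0% of all tested genes. After scaling 4 (50%) were lower, beside 50.9%, and without both replicates 7 the number was 3 of 8 (37.5%), beside 66.6%.

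Among endosomal members, Rab5b ran from 82.2 through 87.7 to 92.97 TPM and from 86.4 through 90.2 to 99.6. The difference was -0.06 ± 0.03 (SE), with an unadjusted p of 0.0615 and an adjusted p of 0.576 by limma. Rab31 was in the other direction, at 23.6 ± 1.75 TPM (SD, n = 9) against 22.7 ± 0.375 (SD, n = 8). Its saline libraries were tightly grouped between 21.97 and 23.3 TPM, and its Poly(I:C) libraries ran from 21.9 through 23.0 to 27.9. The top value came from replicate 7, and the difference of 0.05 ± 0.04 (SE; adjusted p = 0.698 by limma) was 0.02 without that library and 0.03 without both replicates 7.

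That Poly(I:C) library was also the highest of its group for 3 marker lists and the lowest for 1. Its mean log2(TPM + 1) over 5 of 5 oligodendrocyte genes was 8.04, beside a group median of 7.33, and over 6 of 6 striatal projection neuron genes it was 4.05, beside 2.92. Over 5 of 5 interneuron genes it was 7.01, beside 6.85, and over 5 of 5 excitatory neuron genes it was the lowest at 7.53, beside 7.65. Summed oligodendrocyte markers ran from 1447 to 3006 TPM in the Poly(I:C) group and from 1558 to 2062 in the saline group, and summed striatal markers from 95.9 to 193 and from 100.4 to 113 TPM. Summed interneuron markers ran from 1018 to 1278 and from 1085 to 1189 TPM and summed excitatory markers from 2592 to 2907 and from 2618 to 2864 TPM, with no gene of these 4 lists at 0 in any library. Their part in the Rab31 value was not tested.

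Rab4b, of fast recycling, ran from 78.6 through 86.4 to 90.9 TPM in the Poly(I:C) group and from 79.9 through 80.9 to 86.3 in the saline group. The Poly(I:C) libraries reached both below and above the saline range. The difference was 0.06 ± 0.04 (SE; adjusted p = 0.643 by limma), and 0.09 after scaling (unadjusted p = 0.0132, adjusted p = 0.601). Over the 7 recycling members, 5 were lower as deposited (71.4%, beside 71.0% of all tested genes) and 1 after scaling (14.3%, beside 50.9%).

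In the late endosomal and autophagy role, Rab24 ran from 26.4 through 30.3 to 31.8 TPM and from 29.7 through 31.6 to 33.6. The difference was -0.08 ± 0.04 (SE), with an unadjusted p of 0.0431 and an adjusted p of 0.569 by limma, after scaling it was -0.05 (unadjusted p = 0.206), and without both replicates 7 it was -0.06 (unadjusted p = 0.137). Rab24 overlaps Prelid1 on the opposite strand, which was listed at 183 TPM and differed by 0.03, and since the strand setting of the counting is not given, reads of these genes cannot be told apart with certainty. Rab29 ran from 1.75 through 2.82 to 4.28 TPM and from 1.92 through 2.72 to 3.46, with the widest interval of the named members. Its difference was 0.11 ± 0.12 (SE; adjusted p = 0.777 by limma), and it was 0.063 without Poly(I:C) replicate 7, 0.065 without saline replicate 4 and 0.18 without Poly(I:C) replicate 9.

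The 6 most abundant members differed little between the groups. The log2 difference of Rab3a was -0.01 with a 95% interval from -0.08 to 0.06, that of Rab6b was -0.0015 from -0.07 to 0.06 and that of Rab7 was -0.01 from -0.10 to 0.08. Rab6a differed by 0.01, Rab11b by 0.02 and Rab14 by -0.04, and the adjusted p of these 6 genes lay between 0.834 and 0.990 by limma. After scaling the 6 values lay between 0.00 and 0.06.

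**Figure D3:**
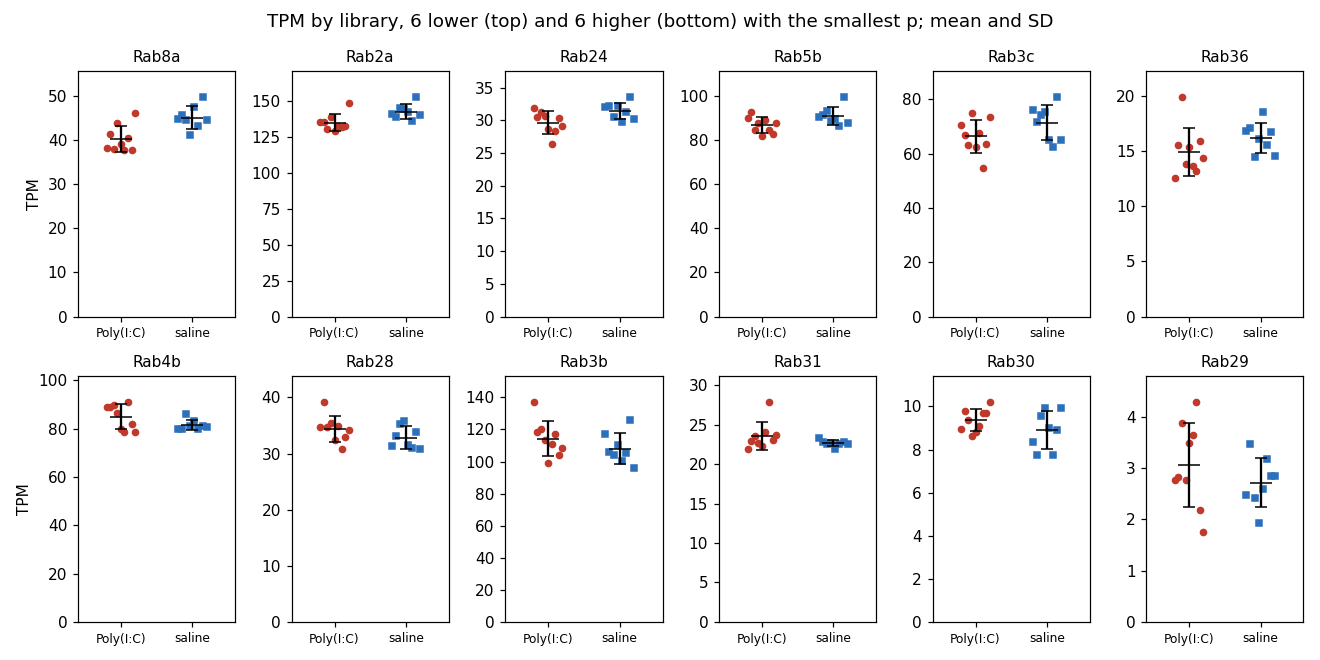
TPM in each library for the 6 members with the smallest p among those lower (top row) and higher (bottom row) in the Poly(I:C) group; red circles are Poly(I:C) libraries (n = 9), blue squares are saline libraries (n = 8), and black lines give the mean and SD, with every axis starting at 0. The groups overlap in all 12 panels, and for Rab8a 6 of 9 Poly(I:C) libraries lie below every saline library.

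Within a library, the share of a paralog in its subfamily does not depend on the scaling between libraries. Rab3a made up 79.5 ± 0.773% of Rab3 TPM after Poly(I:C) (SD, n = 9) and 79.7 ± 0.705% after saline (SD, n = 8). The share of Rab3b was 12.47 ± 0.92% against 11.7 ± 0.547%, that of Rab3c 7.23 ± 0.48% against 7.73 ± 0.378% and that of Rab3d 0.83 ± 0.0947% against 0.87 ± 0.0992%. For Rab3b 8 of 9 Poly(I:C) libraries lay above the saline median, and for Rab3c all 9 lay below it, while the ranges overlapped for both.

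Rab6b and Rab6a split their subfamily almost evenly, with Rab6b at 51.4 ± 0.814% (SD, n = 9) and 51.6 ± 0.365% (SD, n = 8). Rab11b held 63.5 ± 2.35% of Rab11 TPM against 62.0 ± 1.89%, a difference of 1.55 percentage points that was 0.597 without both replicates 7. Rab2a held 84.3 ± 1.05% of Rab2 against 85.2 ± 0.642%. Of 9 Poly(I:C) libraries, 6 lay below every saline library and 1 above every saline library. Rab8a held 77.9 ± 1.58% of Rab8 against 79.3 ± 2.01%; the sum of both was 51.6 ± 3.54 TPM against 56.9 ± 2.93 TPM.

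The dominant paralog was clear in other subfamilies as well. Rab7 held 99.9 and 99.8% of its subfamily, Rab39b 96.95 and 97.6%, Rab27b 87.2 and 87.6%, Rab9 78.1 and 76.9%, Rab4b 70.9 and 69.8%, Rab33a 69.1 and 68.5%, Rab40c 61.7 and 61.1% and Rab1b 58.1 and 57.9% with Poly(I:C) and saline in that order. Rab5 was divided among 3 genes, with Rab5c at 43.5 and 43.1%, Rab5b at 37.7 and 38.3% and Rab5a at 18.8 and 18.6%. No share separated the groups.

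**Figure D4:**
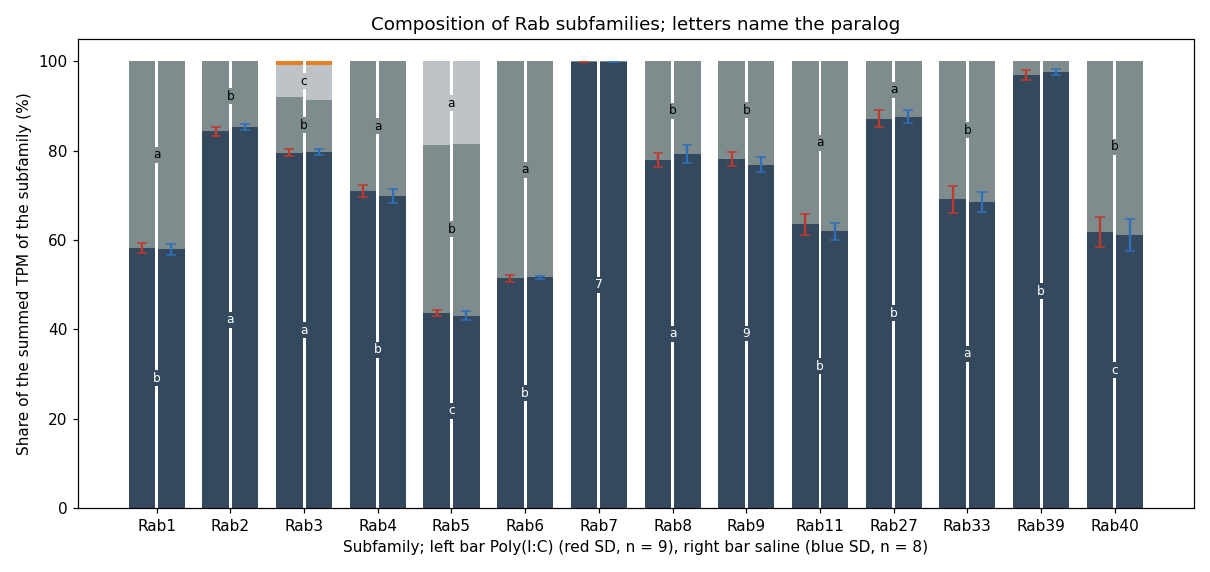
Mean share of each paralog in the summed TPM of its Rab subfamily (percent), with Poly(I:C) as the left and saline as the right bar of each pair; error bars give the SD of the lowest segment over libraries (red n = 9, blue n = 8). Left and right bars are alike in every subfamily, and the lead paralog holds from 43.5% (Rab5c) to 99.9% (Rab7) in the Poly(I:C) group.

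The regulators and effectors of the Rab cycle were read in the same fit. Of 130 listed genes 118 were tested, and 0 passed an adjusted p of 0.05. As deposited 95 (80.5%) were lower, beside 71.0% of all tested genes, and after scaling 63 (53.4%), beside 50.9%. At an unadjusted p under 0.05, 11 were lower (9.32%, beside 7.85% of all tested genes) and 1 was higher (0.847%, beside 0.898%). After scaling 4 were lower (3.39%, beside 3.46%) and 1 was higher (0.847%, beside 3.87%). The number under that limit was 4 without both replicates 7 (3.39%, beside 5.79% of all genes). It was 6 without Poly(I:C) replicate 6 or 7, 7 without saline replicate 7 and 20 without saline replicate 6. No share of all genes is given for those single libraries left out, so these counts are not read as a result about regulators.

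Exchange factors were lower for 23 of 33 genes (69.7%, beside 71.0% of all tested genes) and after scaling for 13 (39.4%, beside 50.9%). Ric1, which with a partner activates Rab6, averaged 12.8 against 14.5 TPM (difference -0.17, adjusted p = 0.535 by limma), and Dennd1a, an exchange factor for Rab35, averaged 34.4 against 36.5 TPM (-0.09, adjusted p = 0.557). The most abundant was Dennd5a, an exchange factor for Rab39, at 109 and 108 TPM. GTPase activating proteins were lower for 32 of 35 genes as deposited (91.4%, beside 71.0% of all tested genes). After scaling they were lower for 22 of 35 (62.9%, beside 50.9%). Their median difference was -0.05, beside -0.035 for all genes, and became -0.02, beside -0.0014. Among them Rabgap1 averaged 26.3 against 29.0 TPM (-0.14, adjusted p = 0.533) and Evi5 36.9 against 40.1 TPM (-0.12, adjusted p = 0.569). The most abundant activating protein, Tbc1d9b, was in the other direction at 89.1 against 83.95 TPM (0.09, adjusted p = 0.569).

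Of the genes for dissociation inhibitors, escort proteins and prenylation, 6 of 7 were lower as deposited (85.7%, beside 71.0% of all tested genes). After scaling 4 were lower (57.1%, beside 50.9%). The escort protein gene Chml averaged 2.70 against 3.10 TPM (-0.15, adjusted p = 0.53 by limma), and Rabggtb, a subunit of the prenylating transferase, 32.3 against 34.1 TPM (-0.08, adjusted p = 0.649).

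Effectors were lower for 33 of 40 genes (82.5%, beside 71.0% of all tested genes) and after scaling for 24 (60%, beside 50.9%). Appl2, an effector of Rab5 on early endosomes, ran from 51.6 through 61.9 to 71.4 TPM in the Poly(I:C) group and from 59.4 through 75.3 to 83.1 in the saline group. All 9 Poly(I:C) libraries lay below the saline median, and the difference was -0.22 ± 0.07 (SE; unadjusted p = 0.00891, adjusted p = 0.486 by limma). Rabep1, which links Rab5 and Rab4 on endosomes, ran from 28.2 through 30.7 to 32.3 TPM and from 29.7 through 33.0 to 36.4. It too had all 9 libraries below the saline median, with a difference of -0.11 ± 0.04 (SE; unadjusted p = 0.00948, adjusted p = 0.486 by limma). For both genes the unadjusted p was under 0.05 in 27 of 27 alternatives and the adjusted p was not. Both were named for their small p, and the alternatives are not separate tests. The most abundant effector, Rph3a, which binds Rab3 on synaptic vesicles, averaged 285 and 282 TPM. The kinase Lrrk1 and the phosphatase Ppm1h, which act on Rab phosphorylation, averaged 2.17 against 2.06 and 30.8 against 30.2 TPM.

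Single libraries stood at the ends of many members' ranges. As deposited, saline replicate 7 was the highest of its group in 24 of 50 members (30.5% of all tested genes), and Poly(I:C) replicate 5 was the lowest of its group in 19 (21.6% of all genes). Saline replicate 6 was the lowest in 18 (32.7% of all genes) and Poly(I:C) replicate 4 the highest in 15 (17.4%). After scaling these counts were 15 (14.3%), 14 (13.5%), 3 (12.6%) and 6 (11.9%). Markers of excitatory neurons, interneurons, astrocytes, oligodendrocytes, microglia and endothelium were all detected in every library. Saline replicate 7 had the highest olfactory bulb markers, at a summed 45.9 TPM, while the summed level ran from 4.65 TPM in the saline group and from 5.18 to 6.83 TPM in the Poly(I:C) group. Without replicate 7 of both groups, 28 of 50 members were lower (66.6% of all genes), the median member difference was -0.01, and Rab8a was the 1 member with an unadjusted p under 0.05 (2% of members, beside 5.79% of all genes), at -0.14 with an adjusted p of 0.847 by limma.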

How the data were processed

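Polyadenylated RNA was sequenced from strand-specific libraries of 17 animals, per the labels' protocols. What the authors deposited is a single table of gene-level TPM with 2 decimals, whose columns share 1 total, so library depth is unknown. The submitters' processing notes name RSEM 1.2.31, STAR 2.5.1b and Trim Galore 0.4.0, and the build mm10. RSEM splits reads between similar transcripts by estimation, and TPM shifts all genes when abundant ones change. Not given in the sources used here were the annotation release and the strand setting.

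Of 48440 identifiers 48058 matched a symbol in a reference table of gene names when version suffixes were left off, and coordinates are those of GENCODE M21 on GRCm38. The filter kept genes at 1 TPM or more in 8 or more libraries. Groups were compared on log2(TPM + 1) with limma 3.58.1 (R 4.3.3; trended eBayes after lmFit), two-sided, with Benjamini-Hochberg adjustment over all 14144 genes. Unadjusted p-values come from that fit. Fold changes on this scale understate those of low genes. The fit was tried on simulated normal values drawn gene by gene, which hold no shift shared by a library. Tables and figures were made with pandas 2.3.3, scipy 1.17.1, numpy 2.4.6 and matplotlib 3.10.9 (Python 3.11.15).

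Values are named for the 6 members with the smallest p in each direction, the 6 most abundant and, per regulator list, the 2 smallest p and the most abundant; 1 gene that this rule names is not reported here. Rab10, Rab8b, Rab13 and Rab23 in the comparison were added after their values were seen. Members, roles and lists were chosen with earlier results of these data known. Protein sequences, which the rule for sequences had planned, were not used here. Alternatives were pseudocounts of 0.1 and 0.5, no filter or a minimum TPM of 5, median-of-ratios and quantile scaling, array weights, the Mann-Whitney test, the replicate number as a block, and leaving out each library or both replicates 7.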

Additional observations from a re-analysis of the deposited data

Results flagged for a closer look

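In 4 of 100 groups of libraries examined (50 members in 2 groups), 1 library stood far from the rest of its group by Dixon's test, where chance flags about 5% of groups. Rab12 was 67.73 TPM in saline replicate 7, with the other saline libraries between 58.2 and 62.15. Rab37 was 2.9 TPM in the same library, with the others between 1 and 1.43. Rab31 was 27.85 TPM in Poly(I:C) replicate 7, with the others between 21.91 and 24.15. Rab36 was 19.86 TPM in Poly(I:C) replicate 3, with the others between 12.55 and 15.9. Without both replicates 7 the log2 difference of Rab12 was 0.0017 in place of -0.01, and that of Rab37 was 0.01 in place of -0.05. Leaving out each library in turn moved the difference of Rab36 between -0.17 and -0.09.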

How the results depend on the processing

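No member had an adjusted p under 0.05 in any alternative run, and the median member difference ran from -0.04 to -0.01 when each library was left out in turn. The number of all genes past that limit was 0, 2 after median-of-ratios scaling, and 0 to 1 with a library left out (1 without saline replicate 4). Members under an unadjusted p of 0.05 numbered 3 (6%, beside 8.75% of all genes), 2 to 4 with a library left out, 6 after median-of-ratios scaling (12%, beside 7.34%), 7 after quantile scaling (14%, beside 7.32%) and 1 without both replicates 7 (2%, beside 5.79%). Those that were lower numbered 1 after median-of-ratios scaling and 1 without both replicates 7. Of 50 members, 37 were lower as deposited, 24 with quantile and 23 with median-of-ratios scaling. Regulators under that limit numbered 12 (10.2%, beside 8.75% of all genes) and 5 after median-of-ratios scaling (4.24%, beside 7.34%). They numbered 6 of 118 after quantile scaling (beside 7.32%) and 4 without both replicates 7 (3.39%, beside 5.79%). With a library left out the number ran from 6 to 20, and no share of all genes is given for those runs.

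Of 485 values of named members over all alternatives 21 changed sign, in 5 members with differences near zero, as did 3 of 349 values of named regulators. After median-of-ratios scaling Rab3a was 0.024, Rab7 0.026, Rab6b 0.036 and Rab14 0.00021, and Rab6b was 0.0027 after quantile scaling. Without both replicates 7, Rab3a was 0.0075, Rab7 0.019 and Rab6b 0.0097. With a library left out, Rab3a ran from -0.023 to 0.0033, Rab7 from -0.032 to 0.010, Rab6b from -0.019 to 0.0092, Rab6a from -0.0071 to 0.030 and Ppm1h from -0.0054 to 0.066. The cause of these changes was not tested.

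The groups share replicate numbers, which the labels do not tie to litters or days. Correlations between libraries of the same number, taken on deviations from the group means, ran from -0.221 to 0.0818, and 0 of 8 exceeded 0.1. With no known pair to compare, these values cannot decide whether the numbers pair the samples. Replicate 9 exists only in the Poly(I:C) group, so with the number as a block that library does not enter the group difference. With the number as a replicate block 2 genes and 0 members had an adjusted p under 0.05. At an unadjusted p under 0.05 there were 3 members (Rab8a, Rab3b and Rab2a), which is 6% beside 8.34% of all genes. Without counts, the precision of low members cannot be given.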
